A study of Rattus norvegicus with 15 samples.

Results

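Pemt and Gnmt are the liver enzymes that use most of the methyl donor S-adenosylmethionine, and they were found on the arrays as the probes whose only platform gene symbol was Pemt or Gnmt. There was 1 probe for each, so these are 2 of the 3400 genes named on the arrays and 2 of its 3757 probes, OR3795 for Pemt and OR3911 for Gnmt. Total RNA of 15 liver tissues of male rats was measured after 70 weeks on a diet. The strain was Fischer344 (given as Fischer for control 1). Control liver (n = 5) came from rats on a basal diet. Noncancerous liver (n = 5) was cirrhotic tissue next to hepatocellular carcinomas, and carcinoma (n = 5) was the tumour itself, both from rats on a choline-deficient, L-amino acid-defined diet. The labels name no carcinogen, and diet and disease differ together and cannot be told apart. They do not say which tumour and which surrounding liver shared an animal. Nothing in the labels says that the samples of a group were separate animals, so p-values measure only the spread between these samples, which may be technical.

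Pemt, phosphatidylethanolamine N-methyltransferase, sits in the endoplasmic reticulum of hepatocytes and turns phosphatidylethanolamine into phosphatidylcholine by repeated methyl transfers. It is the liver's own source of choline, and phosphatidylcholine is needed to export fat in lipoproteins. Gnmt, glycine N-methyltransferase, is an abundant soluble enzyme of hepatocytes that methylates glycine to sarcosine and so disposes of surplus S-adenosylmethionine. It is inhibited by a methylated folate. Dietary choline also feeds this cycle, since its oxidation product betaine remethylates homocysteine to methionine, and a choline-poor diet removes that supply.

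A deposited value of 1 stands for the median of that probe across the arrays, so levels can be compared between samples for a gene but not between genes, and hepatocyte identity could not be checked by absolute level. Deposited ratios stop at a lower limit of 0.01, reached by 229 values in control 1, 209 in noncancerous 1, 33 to 76 in control 2, control 3 and carcinoma 1, and 0 to 10 in each other sample. Before testing, the ratios were quantile-normalized and put on the log2 scale. In these data, probes with neighbouring numbers shift together in a sample. Each value is therefore also given with a running median along the numbering subtracted, taken over the probe and the 50 on each side. The 3 comparisons share samples, so their values are not independent. In limma 0% of the 3757 probes passed an adjusted p of 0.05 in each of the 3 comparisons, and at an unadjusted p under 0.05 there were 9.64%, 7.4% and 13.2% for noncancerous minus control, carcinoma minus control and carcinoma minus noncancerous. In bulk tissue, fewer hepatocytes and less RNA of a gene in each hepatocyte cannot be told apart.

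Pemt was highest in control liver, lowest in the cirrhotic liver around tumours, and between them in carcinoma. Its deposited ratio was 2.31, 1.80, 1.29, 1.99 and 1.02 in control 1 to 5. It was 0.742, 1.0, 0.612, 0.516 and 0.640 in noncancerous 1 to 5. In carcinoma 1 to 5 it was 1.20, 0.992, 0.936, 1.22 and 0.562. All 5 control values lay above all 5 noncancerous values, with control 5 and noncancerous 2 nearly touching, and the carcinoma values overlapped both groups.

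On the normalized log2 scale the level of Pemt was 0.78 ± 0.54 (SD, n = 5) in control liver, -0.69 ± 0.57 (SD, n = 5) in noncancerous liver and -0.06 ± 0.45 (SD, n = 5) in carcinoma. Noncancerous liver was 2.77-fold below control liver, a log2 difference of -1.47 (95% interval -2.41 to -0.53, limma unadjusted p = 0.00368, adjusted p = 0.315). The exact two-sided permutation p was 0.00794, the smallest that 5 against 5 samples can give, and the test was 1 of 18 such tests run (Pemt, Gnmt and the gap between them, in 3 comparisons on 2 scales). Pemt was thus 1 of 2 members whose groups did not overlap, where 1.65% of all probes did so, 0.985% lower and 0.665% higher in noncancerous liver. It did not pass the adjusted test. Pemt and Gnmt were chosen with earlier results of these data known, so these p-values and the lack of overlap are descriptions. The count of 18 tests does not cover that choice.

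Carcinoma was 1.79-fold below control liver in Pemt, a log2 difference of -0.84 (-1.78 to 0.10, limma adjusted p = 0.714, exact permutation p = 0.0476). In 3 of the 5 carcinomas the value lay below every control, and the groups overlapped, as they did for all but 1.89% of probes (1.06% higher and 0.825% lower in carcinoma). Carcinoma was 1.55-fold above noncancerous liver, a log2 difference of 0.63 (-0.31 to 1.57, adjusted p = 0.536, exact permutation p = 0.0952). Pemt overlapped between these groups too, where 2.71% of all probes did not (1.25% higher and 1.46% lower in carcinoma). The neighbours in the order of levels, control to carcinoma and carcinoma to noncancerous, therefore overlapped, and only the ends of the order were apart.

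**Figure D1:**
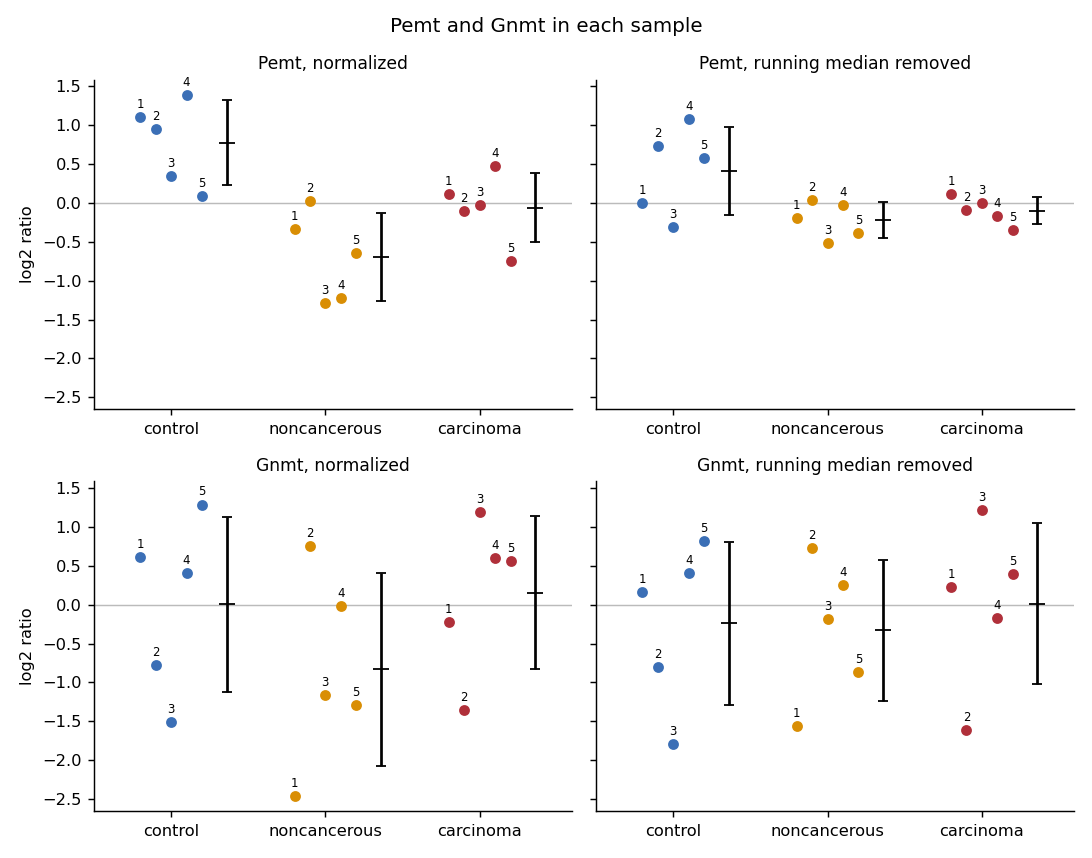
Log2 ratio of Pemt (top) and Gnmt (bottom) in each of the 15 samples, numbered by replicate, normalized (left) and after removal of the running median (right), with the mean and SD of each group of 5 beside its points. Normalized Pemt is above 0 in 5 of 5 controls and below 0 in 4 of 5 noncancerous samples, while the groups overlap for Gnmt in both panels and for Pemt after the running median is removed.

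The probe of Pemt lies in a stretch of the numbering where most probes were lower in noncancerous than in control liver. Of its 100 nearest probes, 93 had a difference below 0, with a median of -0.95, and 19 of them lay lower than Pemt did. The running median at Pemt differed by -0.84 between noncancerous and control liver, by -0.32 between carcinoma and control and by 0.51 between carcinoma and noncancerous. Over all probes, 3.78% had a lower difference than Pemt between noncancerous and control liver.

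Once the running median was removed, Pemt was 0.00, 0.73, -0.31, 1.08 and 0.58 in control 1 to 5. It was -0.20, 0.04, -0.51, -0.02 and -0.39 in noncancerous 1 to 5. The values in carcinoma 1 to 5 were 0.11, -0.09, 0.00, -0.17 and -0.34. In control 1 and carcinoma 3 Pemt was itself the median of its window, and controls 2, 4 and 5 lay above every sample of the choline-deficient rats. The difference was -0.63 between noncancerous and control liver (-1.40 to 0.13, limma adjusted p = 0.996, exact permutation p = 0.0635), with control 1 and control 3 now inside the noncancerous range. The groups of all 3 comparisons overlapped on this scale, where 0.452%, 2.02% and 1.36% of all probes did not in noncancerous minus control, carcinoma minus control and carcinoma minus noncancerous. The difference of Pemt was -0.51 between carcinoma and control (-1.28 to 0.25, adjusted p = 0.685, exact permutation p = 0.111) and 0.12 between carcinoma and noncancerous liver (-0.65 to 0.88, adjusted p = 0.929, exact permutation p = 0.381).

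The spread of Pemt was small beside that of other probes. On the normalized scale its SD was 0.54, 0.57 and 0.45 in control, noncancerous and carcinoma samples, where the median probe had 0.91, 0.88 and 0.91. On the scale with the running median removed, its SD was 0.56 in control liver, 0.23 in noncancerous liver and 0.17 in carcinoma. Then 1.28% of probes had a smaller SD in noncancerous liver and 0.426% in carcinoma, against 24.9% in control liver.

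**Figure D2:**
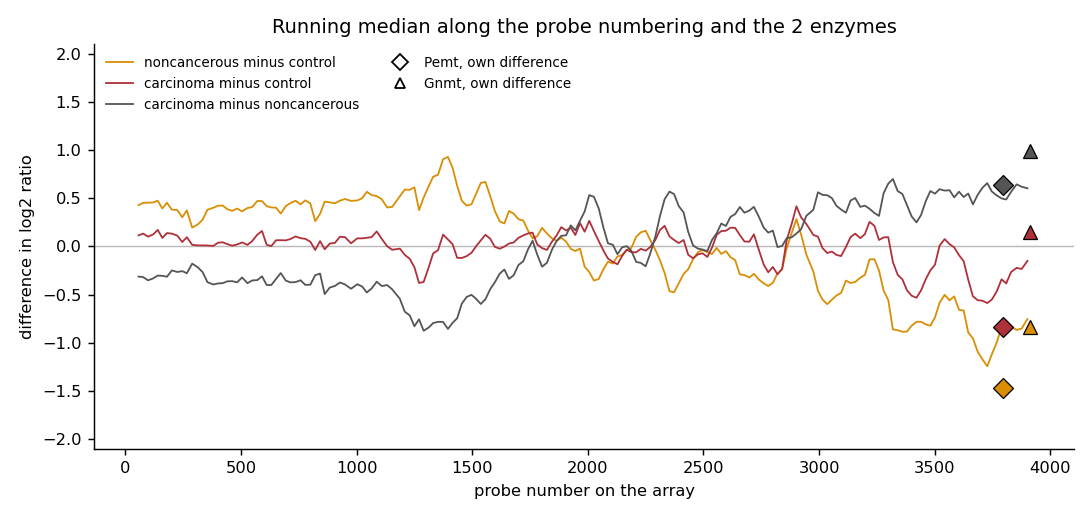
Group differences in log2 ratio (vertical axis) of the running median along the probe number (horizontal axis), 1 line per comparison, with the own differences of Pemt (diamonds) and Gnmt (triangles) in the same colours. The line of noncancerous minus control lies at -0.84 beside Pemt and at -0.75 beside Gnmt, where the genes' own differences are -1.47 and -0.84.

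Gnmt varied widely within each group and did not separate the groups. Its deposited ratio was 1.61, 0.539, 0.352, 1.23 and 1.91 in control 1 to 5. In noncancerous 1 to 5 it was 0.01, 1.48, 0.649, 1.0 and 0.453, where the value of noncancerous 1 stands at the lower limit and is only a bound. It was 0.870, 0.532, 2.05, 1.32 and 1.81 in carcinoma 1 to 5. Each group held samples both above and below the probe's median of 1.

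The normalized log2 level of Gnmt was 0.00 ± 1.13 (SD, n = 5) in control liver, -0.83 ± 1.24 (SD, n = 5) in noncancerous liver and 0.15 ± 0.98 (SD, n = 5) in carcinoma. Noncancerous liver differed from control liver by -0.84 (-2.23 to 0.55, limma adjusted p = 0.676, exact permutation p = 0.27). Without noncancerous 1 that difference was -0.41. Carcinoma differed from control liver by 0.15 (-1.24 to 1.54, adjusted p = 0.975, exact permutation p = 0.802), and the sign turned to -0.23 without control 3, -0.11 without carcinoma 3 and -0.05 without control 2. Carcinoma differed from noncancerous liver by 0.99 (-0.40 to 2.38, adjusted p = 0.514, exact permutation p = 0.214), and by 0.56 without noncancerous 1. No neighbours in the order carcinoma, control, noncancerous differed beyond their spread, and the intervals include a difference of more than 2-fold in either direction between carcinoma and control.

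Gnmt lies near the end of the numbering, with 16 probes after it, so its running median was taken over 33 probes. Of the 66 probes nearest to it (50 before and 16 after), 63 were lower in noncancerous than in control liver, with a median of -0.97, and 42 of them lay lower than Gnmt. After removal of the running median, Gnmt was 0.16, -0.80, -1.80, 0.41 and 0.81 in control 1 to 5. It was -1.56, 0.73, -0.19, 0.25 and -0.87 in noncancerous 1 to 5, and 0.22, -1.61, 1.21, -0.17 and 0.40 in carcinoma 1 to 5. The groups overlapped throughout. The difference was then -0.09 between noncancerous and control liver (-1.34 to 1.17, limma adjusted p = 0.996), 0.25 between carcinoma and control (-1.0 to 1.5, adjusted p = 0.918) and 0.34 between carcinoma and noncancerous (-0.92 to 1.59, adjusted p = 0.87). Without noncancerous 1 the first of these was 0.22. The exact permutation p was 0.889, 0.69 and 0.595 in the same order.

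**Figure D3:**
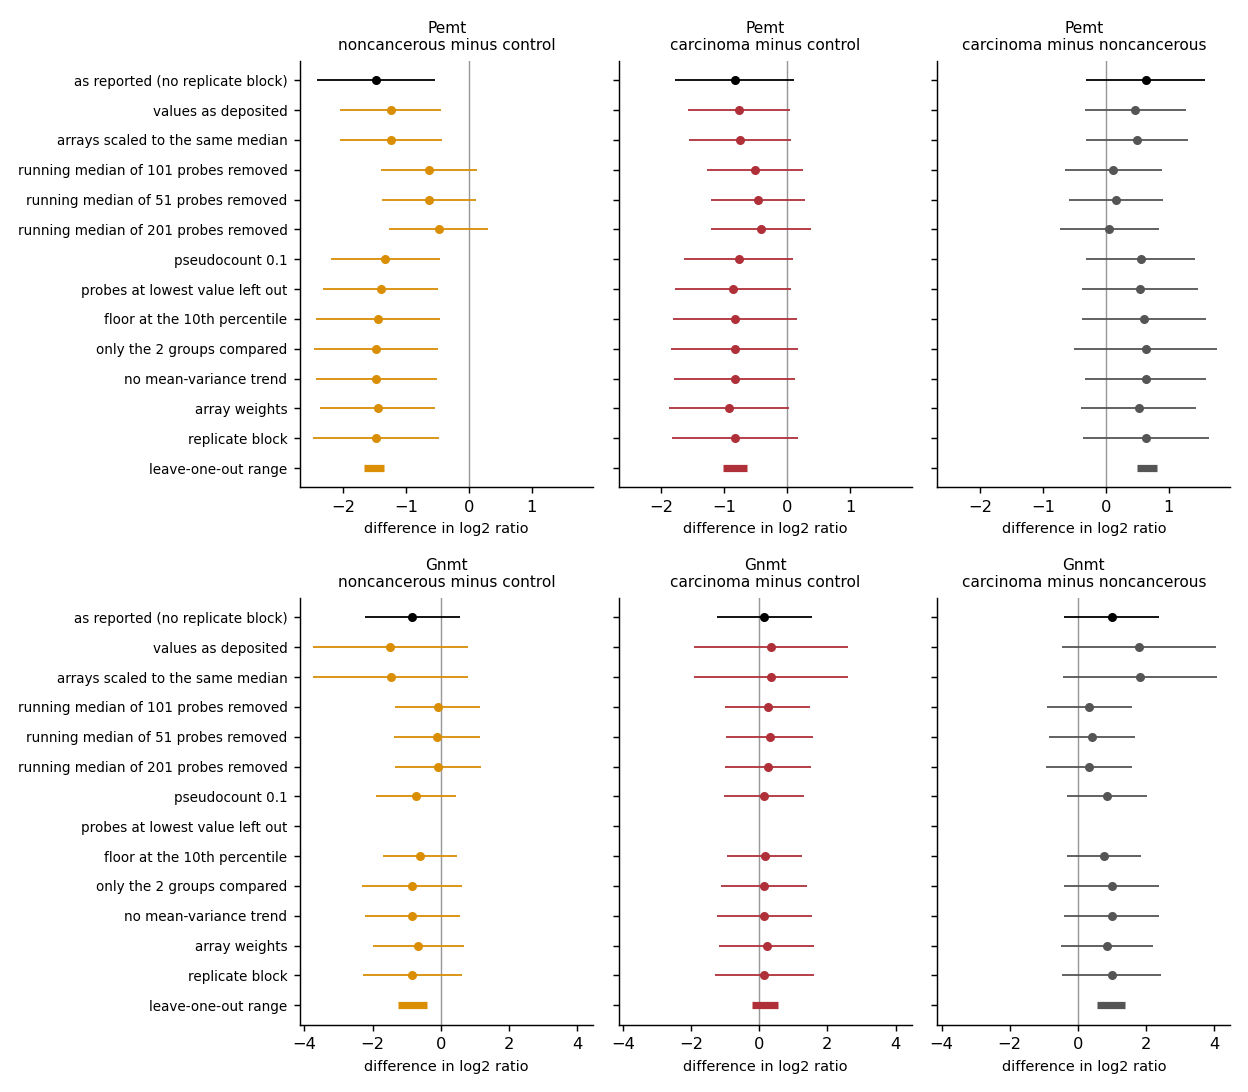
Difference in log2 ratio (horizontal axis) of Pemt (top) and Gnmt (bottom) in the 3 comparisons under each processing alternative (vertical axis), as points with 95% limma intervals, and the range over leaving out 1 sample as a thick bar. The running medians are over 25, 50 and 100 probes on each side for Pemt. For Gnmt the end of the numbering limits each of them to 16 on each side, so its points do not test the width. The black point is the value as reported, and Gnmt has no value where probes at the lowest ratio were left out. The 95% interval of Pemt for noncancerous minus control lies below 0 in the settings shown except those with the running median removed.

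Within an array, Pemt and Gnmt did not differ between groups by more than the spread. Normalized Pemt minus Gnmt was 0.77 ± 1.24 (SD, n = 5) in control liver, 0.14 ± 1.31 in noncancerous liver and -0.21 ± 1.08 in carcinoma. Its sign has no meaning, since each probe is scaled to its own median, and in noncancerous 1 it rests on the lower limit of Gnmt. That gap differed by -0.63 between noncancerous and control liver (exact permutation p = 0.437), -0.99 between carcinoma and control (p = 0.198, exact permutation) and -0.36 between carcinoma and noncancerous liver (p = 0.667, exact permutation). On the values as deposited the first of these was 0.24, with the opposite sign.

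Across the 15 samples the deviations of Pemt and Gnmt from their group means had a correlation near 0 on the normalized scale (Pearson r = 0.0502, permutation p = 0.871; Spearman rho = -0.00357, permutation p = 0.996). Without control 5 and carcinoma 5, the samples farthest from the median of Pemt, r was 0.321 (permutation p = 0.334). On the scale without the running median r was 0.425 (permutation p = 0.164) and rho 0.396 (permutation p = 0.179), and r was 0.124 without control 3 and control 4. These were 2 relations, 1 on each scale, with permutations made within groups, and neither passed a p of 0.05.

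The genes most alike in pattern were taken as those with the highest Pearson r over the 15 normalized values among 3399 other genes, a description with no test, in which samples, arrays and stretches of probe numbers are shared. For Pemt they were Col5a2 (a chain of type V collagen, r = 0.886), Sp1 (a general transcription factor, 0.858), Mgat5 (a glycosyltransferase, 0.819), Pou3f3 (0.805) and Htr2a (a serotonin receptor, 0.799). Their probe numbers lay 1 to 399 away from that of Pemt. After its removal from both, the genes closest to Pemt were Clns1a (0.769), Col5a2 (0.751), Gamt (0.737), Muc13 (0.693) and Pik3r1 (0.688), so Col5a2 was in both sets. For Gnmt they were Adam15 (a membrane protease, 0.836), Cebpa (a liver transcription factor, 0.822), Nsa2 (0.799), Zp1 (0.789) and Cdk17 (0.773), and Cebpa was the probe 1 number away. On the scale without the running median they were Psme1 (a proteasome activator subunit, 0.871), Cit (0.823), Opa1 (0.802), Chek2 (0.791) and Adam15 (0.779).

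Gamt, which methylates guanidinoacetate to creatine and is a further large user of S-adenosylmethionine, had the third highest likeness to Pemt with the running median removed and rank 23 on the normalized scale (r = 0.737 on both). Its deposited ratio was 0.950, 1.76, 1.91, 6.57 and 1.78 in control 1 to 5. It was 0.671, 1.24, 0.952, 0.356 and 0.699 in noncancerous 1 to 5, and 1.13, 1.09, 1.0, 0.770 and 0.727 in carcinoma 1 to 5. Controls 2 to 5 lay above all 10 other samples, and control 1 among them. Normalized Gamt differed by -1.81 between noncancerous and control liver (-3.02 to -0.60, limma adjusted p = 0.355) and by -1.32 between carcinoma and control (-2.53 to -0.11, adjusted p = 0.649). Without control 4 these were -1.26 and -0.76, and r with Pemt was 0.652, or 0.451 with the running median removed. Its probe number, 3695, is 100 from that of Pemt, and with the running median removed the differences were -0.64 and -0.74. The likeness of Gamt to Gnmt was r = 0.184.

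**Figure D4:**
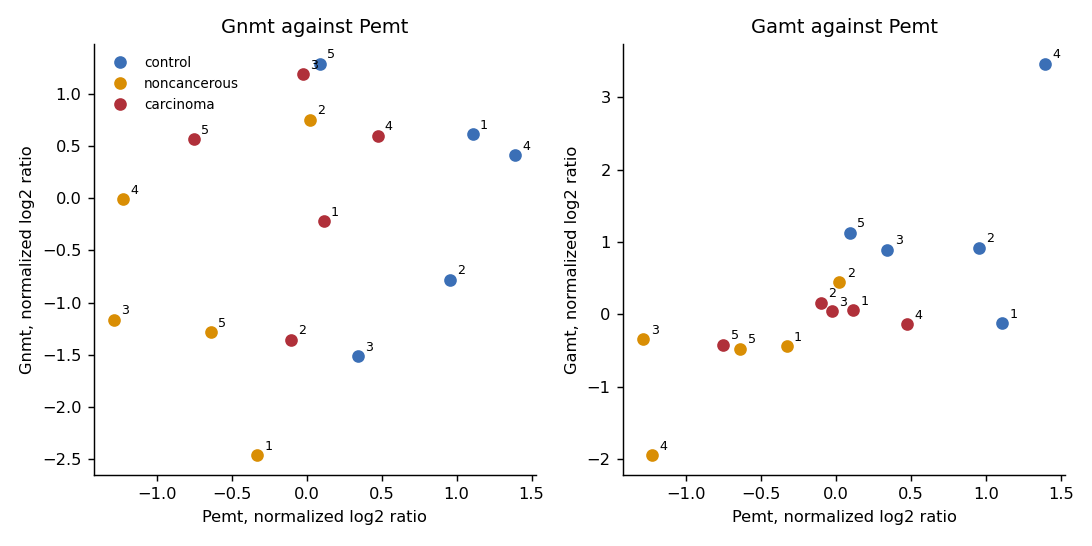
Normalized log2 ratio of Gnmt (left) and Gamt (right) against that of Pemt in the 15 samples, numbered by replicate and coloured by group. Over all samples r with Pemt is 0.737 for Gamt, with control 4 highest on both axes, and 0.259 for Gnmt, and for deviations from the group means it is 0.465 and 0.0502.

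The other genes of methyl group supply and use were taken from 7 lists with 93 genes, of which 42 were measured. None passed the adjusted test in limma in any comparison. Between noncancerous and control liver, 20 of the 42 were above 0 and 22 below, with a median difference of -0.10, where all probes had 0.02. The lists were chosen with earlier results known, so these counts and the values of single genes given below are descriptions. At an unadjusted p under 0.05, 0 were higher and 6 lower (14.3%, with 4.02% of all probes higher and 5.62% lower). The 6 were Bhmt, Dmgdh, Ggh, Atic, Gamt and Pld2. With the running median removed 0 of the 42 were higher (all probes 2.18%) and 1 was lower (2.38%, all probes 1.84%), which was Pld2. Between carcinoma and control liver 0 were higher (all probes 3.65%) and 2 lower (4.76%, all probes 3.75%), which were Gamt and Pld2. Without the running median these were 0 (all probes 4.39%) and 3 (7.14%, all probes 4.1%), with Ggh, Cbs and Pld2 lower. Between carcinoma and noncancerous liver 3 were higher (7.14%, all probes 6.95%), Dmgdh, Atic and Chka, and 2 lower (4.76%, all probes 6.28%), Slc5a7 and Chkb. Without the running median these were 3 (all probes 5.56%) and 1 (2.38%, all probes 4.26%).

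Among the methionine cycle genes, which make and regenerate S-adenosylmethionine, 5 of 11 were measured, and 4 of the 5 lay below 0 between noncancerous and control liver, with a median of -0.95, where 50.7% of all probes were above 0. With the running median removed 2 of the 5 lay below 0 and the median was 0.01. Bhmt, which remethylates homocysteine with betaine, had deposited ratios of 1.99, 0.870, 2.35, 5.40 and 0.945 in control 1 to 5 and of 0.558, 0.71, 1.68, 0.679 and 0.317 in noncancerous 1 to 5. In carcinoma 1 to 5 it was 1.0, 0.488, 3.43, 1.92 and 3.25, so that all groups overlapped. Bhmt differed by -1.59 between noncancerous and control liver (-3.13 to -0.05, adjusted p = 0.506; -1.03 without control 4), and by 1.14 between carcinoma and noncancerous liver (-0.40 to 2.68). Mat1a, the S-adenosylmethionine synthetase of adult hepatocytes, differed by -0.95 (-2.15 to 0.25) between noncancerous and control liver, and by -0.38 with the running median removed. Mat2a, the form of other and of growing cells, differed by -1.23 (-2.48 to 0.02), and by 0.01 with the running median removed. Mtr, the folate-dependent methionine synthase, differed by 0.83 (-0.31 to 1.97). Between carcinoma and control liver Mat1a differed by -0.24, Mat2a by -0.84, Bhmt by -0.45 and Mtr by 0.79, and between carcinoma and noncancerous liver Mtr differed by -0.03.

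Of the enzymes that break down choline's products and glycine, 3 of 9 were measured. Dmgdh, which oxidizes the dimethylglycine left by Bhmt, had deposited ratios of 0.205 to 0.802 in noncancerous liver and 1.0 to 2.58 in carcinoma, so those groups did not overlap, while control liver spanned 0.451 to 1.57. It differed by 2.06 between carcinoma and noncancerous liver (0.96 to 3.15, limma adjusted p = 0.224), by 1.53 without the running median, where the groups overlapped, and by -1.21 between noncancerous and control liver (-2.30 to -0.11). The background for no overlap in the direction of higher in carcinoma was 1.25% of probes. Sardh, which oxidizes the sarcosine that Gnmt makes, differed by 0.64 (-0.46 to 1.74) between noncancerous and control liver and by -0.45 between carcinoma and noncancerous liver (-0.06 without carcinoma 2). Gcsh, a carrier protein of the glycine cleavage system, differed by -2.91 (-5.84 to 0.02), -0.08 and 2.83 in the order noncancerous minus control, carcinoma minus control and carcinoma minus noncancerous. Dmgdh differed by 0.85 (-0.24 to 1.94) between carcinoma and control.

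Folate genes numbered 7 of 18. Atic, of purine synthesis from folate one-carbon units, differed by -2.0 between noncancerous and control liver with no overlap (-3.55 to -0.46, limma adjusted p = 0.413), where 0.985% of all probes were lower without overlap. With the running median removed it differed by -1.04 and the groups overlapped. Atic differed by 2.12 (0.57 to 3.67) between carcinoma and noncancerous liver. Aldh1l1, which oxidizes formyl folate, differed by 1.29 (-0.05 to 2.63) between noncancerous and control liver and by -0.78 between carcinoma and noncancerous liver. With the running median removed these were 0.34 and 0.12, the latter with the sign turned. The folate carrier Slc19a1 differed by 0.87 and the folate hydrolase Ggh by -1.11 between carcinoma and control.

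Transsulfuration and glutathione genes, which take homocysteine to cysteine and on to glutathione or taurine, were all measured (7 of 7), and their median difference was -0.08 between noncancerous and control liver. Cbs, the entry enzyme, differed by -0.17 (-1.25 to 0.91) between noncancerous and control liver and by -1.07 (-2.15 to 0.01, limma adjusted p = 0.656) between carcinoma and control. Cdo1, which oxidizes cysteine, differed by -1.10 and Gss, glutathione synthetase, by 0.59 between noncancerous and control liver. Gclc differed by 0.40 between carcinoma and control, and Csad by 0.63 (0.30 without noncancerous 3) and Gss by -0.92 between carcinoma and noncancerous liver. Among the other methyltransferases, 5 of 21 measured, Gamt lay lowest between noncancerous and control liver and Coq3, of ubiquinone synthesis, highest at 1.32 (-0.01 to 2.65). Coq3 had 1 sample at the lower limit, and its difference was 0.80 without control 1 and 0.81 with the running median removed. Between carcinoma and control Icmt lay highest at 0.57, and between carcinoma and noncancerous liver Gamt lay at 0.49 and Coq3 lowest at -1.27. That value of Gamt was 0.14 without noncancerous 4 and turned to -0.10 with the running median removed.

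The route to phosphatidylcholine that does not need Pemt starts with choline kinase, and 10 of 19 genes of choline transport and phospholipid synthesis were measured. Chka, a choline kinase, differed by -0.87 (-2.01 to 0.27) between noncancerous and control liver and by 0.68 (-0.47 to 1.82) between carcinoma and control, where the groups did not overlap (1.06% of probes higher without overlap). With the running median removed that difference was 0.82 and the groups overlapped. It differed by 1.54 (0.40 to 2.69, limma adjusted p = 0.26) between carcinoma and noncancerous liver, and by 0.98 with the running median removed. Chkb, the other choline kinase, differed by -1.26 (-2.41 to -0.12) between carcinoma and noncancerous liver. The phospholipase Pld2, which releases choline from phosphatidylcholine, differed by -2.41 (-3.96 to -0.86, adjusted p = 0.315) between noncancerous and control liver and by -1.86 (-3.41 to -0.31) between carcinoma and control (-1.19 without carcinoma 1). The choline transporter Slc5a7 differed by 0.94 between noncancerous and control liver and by -1.58 between carcinoma and noncancerous liver. Of polyamine and creatine genes, 5 of 8 measured, Ckb differed by 1.15 and Amd1, which decarboxylates S-adenosylmethionine, by -0.95 between noncancerous and control liver. Without noncancerous 5 the value of Ckb was 0.69. That of Amd1 was -0.42 without control 2 and -0.11 with the running median removed. Pld2, Ckb and Gatm each had 1 sample at the lower limit, where the value is only a bound. Between carcinoma and control, Odc1, which makes putrescine, differed by 1.01 and Amd1 by -0.72, and between carcinoma and noncancerous liver Oaz1 differed by 1.48 (0.72 without noncancerous 5) and Gatm, which makes the substrate of Gamt, by -1.17. Of the 42 largest and smallest differences of the lists, 2 turned on leaving out 1 sample (Mtr, carcinoma minus noncancerous, and Gcsh, carcinoma minus control) and 22 others moved by over 1.5 times. With the running median removed 3 turned (Mtr, Aldh1l1 and Gamt, all carcinoma minus noncancerous) and 21 others moved by over 1.5 times.

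**Figure D5:**
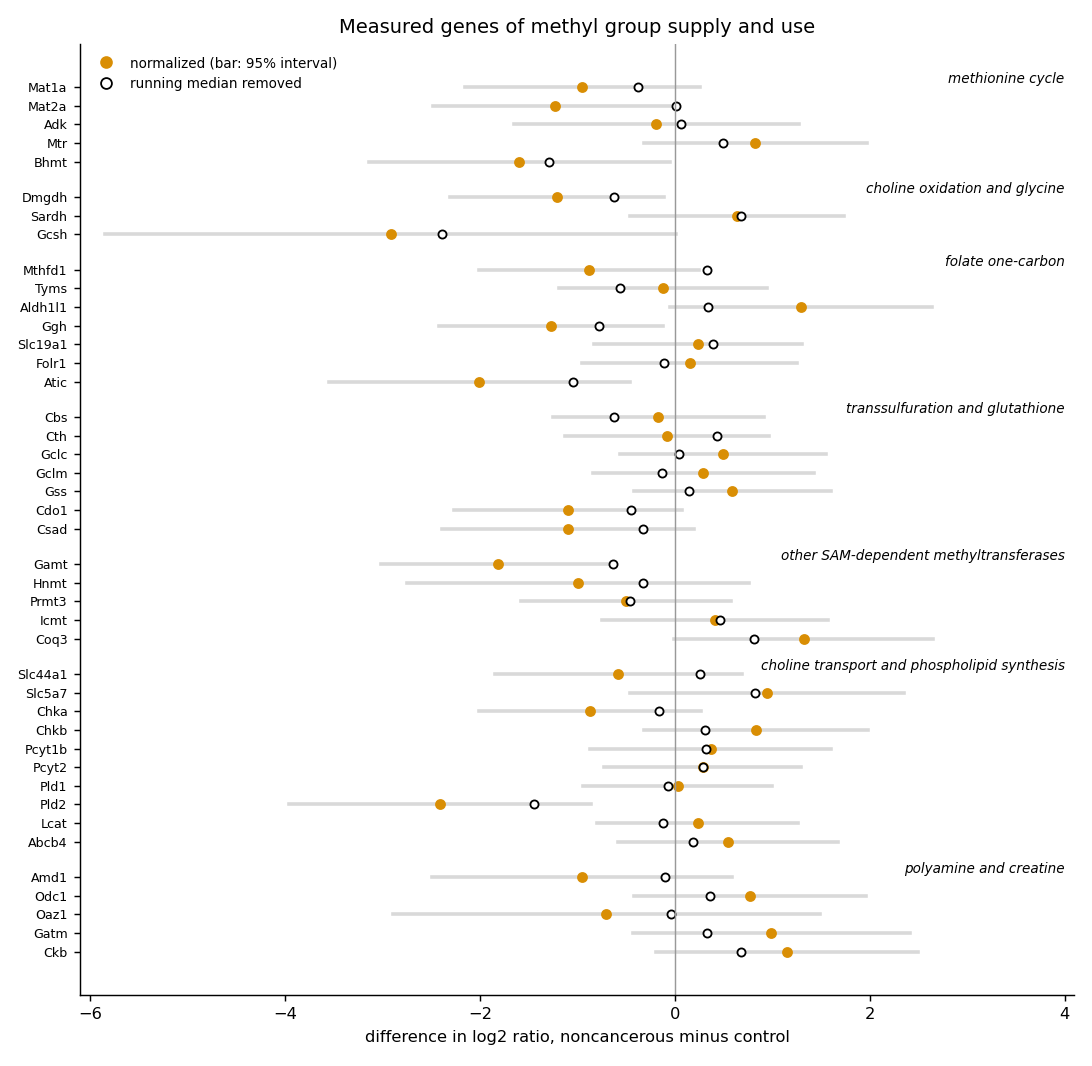
Difference in log2 ratio between noncancerous and control liver (horizontal axis) for the 42 measured genes of the 7 lists, normalized (filled, with 95% limma interval) and with the running median along the numbering removed (open). On the latter scale the count at an unadjusted p under 0.05 goes from 6 of 42 to 1 of 42, which is Pld2.

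Markers of hepatocytes and of other cells are given beside Pemt and Gnmt, and their part in the differences was not tested. The mean normalized log2 level was taken over 13 of 15 hepatocyte markers. It ran from -0.96 to 0.38 in control, -0.94 to 1.25 in noncancerous and -0.32 to 0.48 in carcinoma samples, with overlap between all groups. Between noncancerous and control liver 7 of the 13 were above 0 and 6 below, and 8 were above 0 with the running median removed. At a limma unadjusted p under 0.05, Apoa1 (2.35), Otc (2.28) and Tdo2 (1.13) were higher and Hnf4a (-1.06) lower. Over all probes 4.02% were higher and 5.62% lower. Their probe numbers were 403, 1266, 1379 and 3506, and Otc had 1 sample at the lower limit. Between carcinoma and control liver 10 of the 13 were above 0 on either scale. Stellate cell and myofibroblast markers (7 of 9 measured) averaged 0.02 ± 0.20 (SD, n = 5) in control, -0.40 ± 0.24 in noncancerous and 0.11 ± 0.20 in carcinoma samples. They ran from -0.20 to 0.29, -0.78 to -0.22 and -0.11 to 0.37. In this mean, as for normalized Pemt, no noncancerous sample reached the control range, and here none reached the carcinoma range either. The highest noncancerous mean, -0.215, lay just below the lowest control mean, -0.199. This mean was not taken with the running median removed. Of the 7 single markers, 4 were above 0 between noncancerous and control liver, with a median of 0.003. The 3 below 0 were Vim (-1.37), Col3a1 (-1.34) and Col1a1 (-1.11), with probe numbers 3063 to 3336. With the running median removed 1 of the 7 was above 0, with a median of -0.26. How often a mean of 7 probes separates the groups was not tested. The means of biliary and progenitor markers (3 of 7) ran from 0.02 to 1.24, -1.0 to 0.37 and -1.16 to 0.32 in control, noncancerous and carcinoma samples. Macrophage markers (2 of 7) ran from -3.0 to 1.19, -1.78 to -0.46 and -0.41 to 0.98, lymphocyte markers (5 of 8) from -0.48 to -0.13, -0.33 to 0.39 and -1.08 to 0.66, and endothelial markers (2 of 6) from -0.96 to 1.05, -0.57 to 0.60 and -1.45 to 0.25. No marker passed the adjusted test in limma in any comparison.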

How the data were processed

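The authors deposited 1 table of 15 arrays with a linear ratio per probe. Each of the 3757 probes had a median of 1 across arrays (tolerance 1e-06). What array, dyes and software the authors used, and how background was treated, is not given in the sources used here. Groups and replicate numbers came from the sample titles, and 0 columns of the table were left aside. Symbols came from the platform annotation and were updated by gene identifier (3429 of 3440 matched) through RefSeq genes of GRCr8. For a gene with several probes, the probe whose values varied least inside the groups stood for it.

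Ratios were quantile-normalized and log2-transformed, with no filter and no pseudocount. All 15 samples entered 1 model with group as the only term (limma 3.58.1, R 4.3.3, lmFit and eBayes with trend, 12 residual degrees of freedom), adjusted by Benjamini-Hochberg over 3757 probes. Exact permutation tests were two-sided. Correlations used 100000 permutations within groups. The fit was run on simulated data, with deviations from group means shuffled over all 15 samples and known shifts added to some probes. It was required only that the mean estimate lay near the added shift. No limit was set for false calls or for the share recovered. Alternatives were the values as deposited, median scaling, running medians over 25, 50 and 100 probes on each side, a pseudocount of 0.1, a filter and a floor on low values, only the 2 groups compared, no trend, array weights, a block for the replicate number, and each sample left out in turn. At Gnmt, near the end of the numbering, each running median was limited to 16 probes on each side. Figures were drawn with matplotlib 3.10.9.

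Members and lists were chosen with earlier results of these data known. Named besides Pemt and Gnmt were, per list and comparison, the genes with the largest and smallest difference, 8 fixed genes where measured (Ahcy and Pcyt1a were not among the named probes used here), and the 5 genes most alike in pattern to each member on either scale. Genes with an unadjusted p under 0.05 or no overlap, and second values for genes already named, were added after their values were seen. Precision is limited by the number of arrays.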

Additional observations from a re-analysis of the deposited data

How the results depend on the processing

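Pemt kept its direction in each of the 3 comparisons under all 29 alternatives, and neither Pemt nor Gnmt passed the adjusted threshold in any. Some of these could not turn the direction. Fitting only the 2 groups compared, leaving out the trend and adding the replicate block leave the difference of means unchanged. Leaving out a sample of the third group acts only through the normalization. Noncancerous and control values of Pemt did not overlap, so leaving out 1 sample could turn that difference only through the normalization. Leaving out 1 sample moved Pemt from -1.66 to -1.34 (noncancerous minus control), -1.02 to -0.64 (carcinoma minus control) and 0.50 to 0.81 (carcinoma minus noncancerous). Over the other alternatives it ranged from -1.47 to -0.48, -0.93 to -0.42 and 0.057 to 0.67 in the same order. The last of these thus came near to no difference. For noncancerous minus control, Pemt was -1.24 as deposited, and -0.63, -0.63 and -0.48 with a running median over 25, 50 and 100 probes on each side removed. On the values as deposited, Gnmt was -1.47 (noncancerous minus control) and 1.81 (carcinoma minus noncancerous). Over all alternatives the latter ranged from 0.0275 to 1.83. These deposited values, and Pemt minus Gnmt on that scale, include noncancerous 1 at the lower limit, which is only a bound. Its deposited log2 value of Gnmt was -6.64, against -1.14 to 0.56 in noncancerous 2 to 5. Over leaving out 1 sample, Gnmt ranged from -0.23 to 0.54 (carcinoma minus control), and Pemt minus Gnmt from -0.74 to 0.14 (carcinoma minus noncancerous). Pemt minus Gnmt for noncancerous minus control turned to 0.24 on the values as deposited and to 0.24 with arrays scaled to the same median. Chosen after seeing the data, leaving out control 1 and noncancerous 1 gave Pemt minus Gnmt of 0.13 for carcinoma minus noncancerous. Leaving out noncancerous 1 with the running median removed gave 0.0892 for the same quantity and 0.22 for Gnmt, noncancerous minus control. The cause of these turns was not tested. The count of probes past the adjusted threshold ranged from 0 to 2 (carcinoma minus noncancerous, 2 without noncancerous 5), and was 0 otherwise. The filter that left out probes at the lowest ratio removed Gnmt. For same-numbered samples the labels give only the shared number. Correlation of their deviations was -0.34 to 0.387, over 0.1 in 6 of 15 pairs, and 2 of 15 samples were best with their own number. The samples numbered 1 correlated at 0.324 (control, noncancerous), 0.191 (control, carcinoma) and 0.387 (noncancerous, carcinoma). The medians with other numbers were -0.126, -0.104 and -0.0927. Each other number had correlations of both signs. Control samples cannot share an animal with the other groups, since the diets differed. Whether same-numbered noncancerous and carcinoma samples shared an animal was not tested. Nor was it tested whether same-numbered samples of any groups shared another factor. The replicate block leaves a difference of means unchanged, since each number occurs once in each group. With it the limma adjusted p for noncancerous minus control was 0.354 for Pemt (-1.47) and 0.687 for Gnmt (-0.84), and 0 probes passed. An exact permutation test within such pairs cannot go below p = 0.0625.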
